A study of Homo sapiens and Mus musculus with 15 samples.

Results

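The ATP-binding cassette (ABC) transporter genes were followed through 5 groups of myeloma cells that were either naive to proteasome inhibitors or had been made resistant to one. Members were taken by gene symbol alone, as every symbol that begins with ABC and goes on with a subfamily letter from A to G and a number, with an optional a or b. This gave 50 genes of the 23329 listed for the mouse line and 46 of the 23346 listed for the human line, and 41 symbols were listed in both. A filter on low counts left 28 members to be tested in each line. The other 22 mouse and 18 human members are given as raw read counts, so the tested members are not the whole family.

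ABC transporters are membrane proteins that use the energy of ATP to move lipids, peptides, metals, conjugates and drugs across membranes. P-glycoprotein, encoded by ABCB1 in humans and by Abcb1a and Abcb1b in mice, is the classic drug exporter, and together with MRP1 (ABCC1) and BCRP (ABCG2) it is known for multidrug resistance in blood cancers. Carfilzomib is a recognised P-glycoprotein substrate. Other branches carry out house-keeping work. ABCA and ABCG proteins mostly move sterols and phospholipids, and several ABCB proteins sit in mitochondria or lysosomes. Most ABCD proteins import fatty acids into peroxisomes, and ABCE and ABCF proteins are not transporters but act on ribosomes.

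RNA was measured by sequencing in 15 libraries, 3 for each of 5 groups. The mouse line 5TGM1 derives from a spontaneous plasma cell tumour of C57Bl/KaLwRij mice that was passaged from animal to animal, and 8226 (RPMI-8226) is an established human plasma cell myeloma line. Each line had a naive group and a bortezomib-resistant group, kept in bortezomib at 20 nM (5TGM1) or 10 nM (8226), and 8226 also had a carfilzomib-resistant group, kept in 10 nM carfilzomib. All were cell lines in culture, and the 3 resistant ones were held without drug for 5 days before RNA was taken. Each resistant group is a single derivation by months of selection, and effects of that derivation, of resistance and of the drug cannot be told apart. Bortezomib carries a boronate and carfilzomib an epoxyketone, and both block the catalytic site of the proteasome.

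Reads on genes ran from 49097494 to 72288680 per mouse library and from 31709636 to 58419576 per human library, with the bortezomib-resistant 8226 libraries the shallowest. ABC genes took 0.194% to 0.207% of those reads in 5TGM1. In 8226 they took 0.168% to 0.173% in naive, 0.156% to 0.159% in bortezomib-resistant and 0.155% to 0.161% in carfilzomib-resistant libraries. Plasma cell marker RNA was present in every group, summed over 9 marker genes (8 of them listed for the mouse). CPM (reads of a gene relative to all gene reads of its library, scaled by TMM) summed to 5730 to 5980 in naive 5TGM1 and to 6940 to 7350 in its resistant line. In naive, bortezomib-resistant and carfilzomib-resistant 8226 the sums were 8430 to 9610, 3800 to 3940 and 5660 to 5870. IGJ alone read 6893, 2220 and 4287 CPM there, and Igj 2544 and 4137 CPM in 5TGM1. Other markers moved both ways. In the same order of 8226 groups, XBP1 read 832, 316 and 609, TNFRSF17 41.1, 144.5 and 13.5 and CD38 87.5, 137.5 and 237.5 CPM. Cd38 lay below 1 CPM in 5TGM1, as did SLAMF7 in bortezomib-resistant 8226. Of 6 macrophage markers, the sum was 284 to 287 and 377 to 426 CPM in the mouse groups and 54.8 to 60.3, 36.6 to 37.5 and 170 to 183 CPM in the human groups, with 2 to 4 of the 6 at 1 CPM or more in a group. CSF1R lay below 1 CPM in all 5 groups, while ITGAM went from 5.21 CPM in naive to 158 CPM in carfilzomib-resistant 8226, EMR1 from 0.529 to 16.7 (bortezomib) and 6.38 CPM (carfilzomib), and CD68 from 48.3 to 8.63 and 13.7 CPM. In 5TGM1, Cd68 went from 266 to 373 CPM and Mrc1 from 19.3 to 25.4 CPM. Markers of fibroblasts, T cells and red cells summed to at most 6.32 CPM in any library. The part of these shifts in the ABC results was not tested, and in bulk RNA fewer cells of a kind and less RNA per cell cannot be told apart.

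Levels above and below are CPM on library sizes scaled by TMM. Each comparison used the quasi-likelihood F test of edgeR, p-values were adjusted by Benjamini-Hochberg over every gene tested in the line, and a change counts as called where the adjusted p lies under 0.05. In bortezomib-resistant against naive 5TGM1, 7 of the 28 tested ABC genes rose and 9 fell (25% and 32.1%), beside 34.0% and 33.2% of all 11974 tested genes. In bortezomib-resistant against naive 8226, 10 rose and 14 fell (35.7% and 50%), beside 38.2% and 41.6% of 13910. With libraries scaled by size alone, rises made up 58.7% rather than 47.9% of all called genes there. In carfilzomib-resistant against naive 8226, 11 rose and 13 fell (39.3% and 46.4%), beside 35.0% and 36.7%. In the direct comparison of the resistant 8226 lines, 14 were higher and 11 lower in the carfilzomib-resistant one (50% and 39.3%), beside 39.9% and 37.0%. Most genes of the transcriptome were called in 1 direction or the other, and nothing particular to the family is read from these counts. Counts by subfamily and by list of partner genes below are likewise a description, given beside the same shares. The comparisons of the resistant 8226 lines with naive 8226 share the same 3 naive libraries.

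Fewer changes were large. No tested ABC gene changed by 2-fold or more in 5TGM1, where 9.81% of all tested genes did and were called. In 8226, 12 of 28 were called at 2-fold or more with bortezomib resistance (42.9%, against 32.5% of all genes), 8 with carfilzomib resistance (28.6%, against 24.3%) and 11 between the resistant lines (39.3%, against 27.9%). The median log2 fold change of the tested ABC genes was -0.015 in 5TGM1, -0.33 and -0.013 in bortezomib-resistant and carfilzomib-resistant 8226, and 0.047 between the resistant lines. Over all tested genes it was 0.0045, -0.026, -0.0036 and 0.020.

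**Figure D1:**
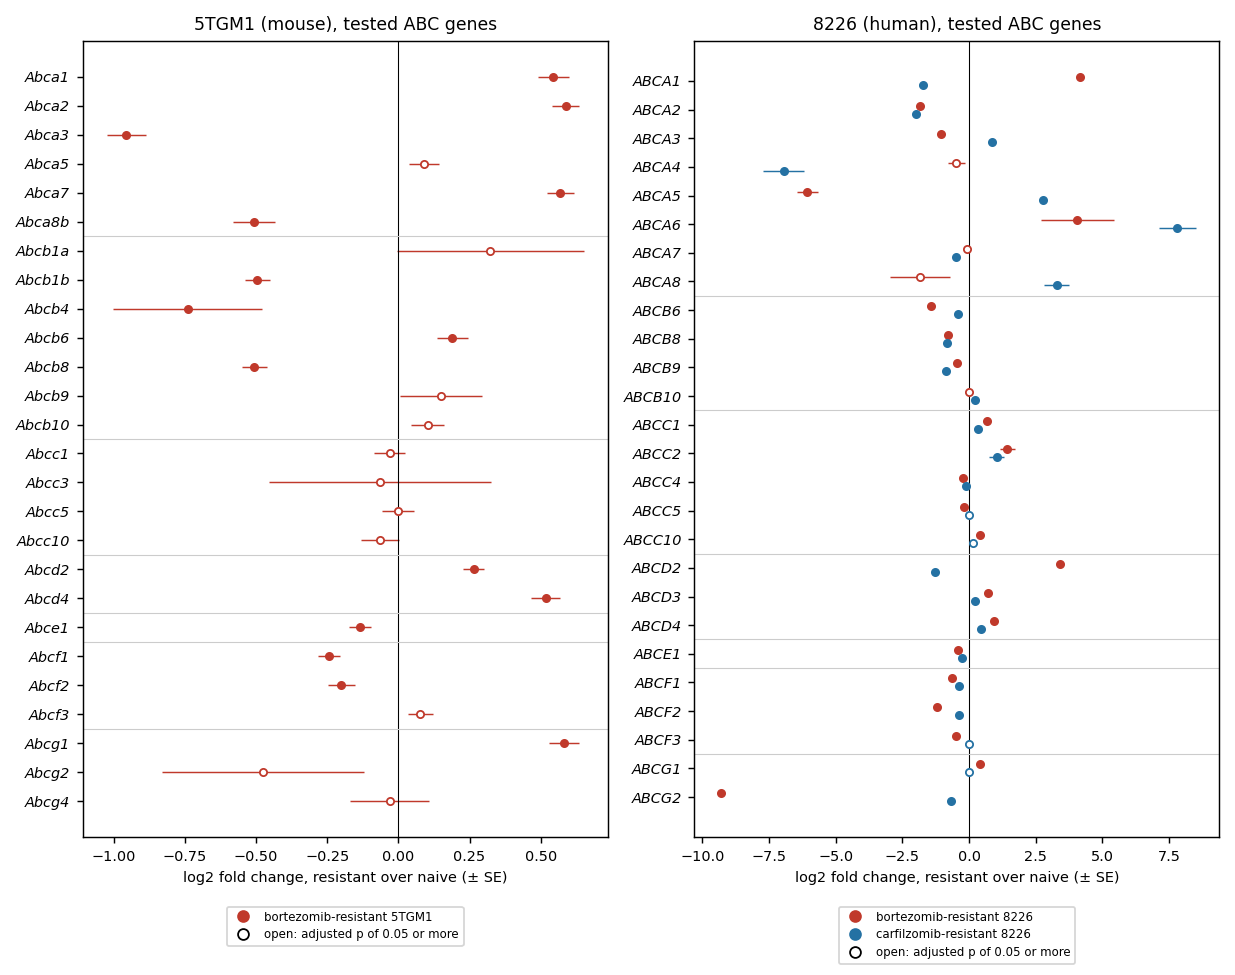
Log2 fold change of resistant over naive cells (x axis, ± SE, 3 libraries a group) for 26 tested ABC genes of 5TGM1 (left) and 26 of 8226 (right), grouped by subfamily from A to G. Filled points were called at an adjusted p below 0.05; the x axis of 8226 is several times wider, and the points of ABCA4 and ABCA6 at far left and right rest on groups with 0 reads, so their positions are not measured sizes.

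Of the 3 named multidrug exporters (ABCB1, ABCC1 and ABCG2), none rose in every resistant line. P-glycoprotein RNA was close to undetected in 8226. ABCB1 had 1, 4 and 1 reads in the 3 naive libraries, none in the bortezomib-resistant ones and 2, 0 and 1 in the carfilzomib-resistant ones. The 0 reads allow up to 0.03 CPM over the bortezomib-resistant group. The gene did not pass the filter for testing. When edgeR was run without that filter, ABCB1 was called lower in bortezomib-resistant than in naive 8226 (adjusted p = 0.0424), a call that rests on 6 against 0 reads.

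In 5TGM1 almost all P-glycoprotein reads fell on Abcb1b. It stood at 147, 155 and 150.2 CPM in naive libraries and 110.3, 103 and 108 CPM in bortezomib-resistant ones. Every resistant library was thus below every naive one, and the gene fell by 0.50 on the log2 scale (SE 0.0428, adjusted p = 3.28e-08, edgeR quasi-likelihood test). Its neighbour and close copy Abcb1a had 31 reads over the naive group and 37 over the resistant group, with 0.224, 0.180 and 0.143 CPM against 0.180, 0.225 and 0.284 CPM. Those libraries overlapped and the difference was not called (log2 0.32, adjusted p = 0.411). Because reads that map to several places were set aside in the counting, the split between such copies is uncertain.

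ABCG2 encodes BCRP, a half-transporter that exports drugs, porphyrins and urate. In naive 8226 it read 98.6, 103 and 101 CPM, the 7th highest of the tested ABC genes per kilobase of transcript (20.9 CPM per kb). In the bortezomib-resistant line it read 0.218, 0.117 and 0.137 CPM, or 17 reads in all. In the carfilzomib-resistant line it read 64.6, 62.7 and 64.1 CPM. The 3 groups did not overlap: ABCG2 was lost almost wholly from the bortezomib-resistant line and kept at a lower level in the carfilzomib-resistant one. The log2 fold changes were -9.29 ± 0.111 (SE) with an adjusted p of 6.36e-18, and -0.66 ± 0.0529 with 2.08e-08. Mouse Abcg2 was near the detection limit in both 5TGM1 groups, at 0.163, 0.262 and 0.347 CPM and 0.162, 0.139 and 0.264 CPM, and was not called (adjusted p = 0.248).

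ABCG2's neighbours on chromosome 4, looked up after these values were seen, moved in different ways. SPP1, the gene of the secreted protein osteopontin, went from 618 ± 39 CPM in naive to 0.267 ± 0.291 in bortezomib-resistant and 0.0328 ± 0.0212 in carfilzomib-resistant cells. HERC6 went from 2.27 to 0.0656 and 0.117 CPM. PKD2, which lies between SPP1 and ABCG2, read 21.8, 11.2 and 12.5 CPM, and PPM1K on the other side read 36.4, 49.7 and 35.3 CPM. So the near absence of ABCG2 RNA in the bortezomib-resistant line did not extend to PKD2 or PPM1K. In the carfilzomib-resistant line SPP1 was nearly absent while ABCG2 was not.

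ABCC1 encodes MRP1, which exports glutathione conjugates and many drugs. It read 100.3, 90.8 and 94.0 CPM in naive 8226, 145, 155 and 156 CPM in the bortezomib-resistant and 125, 112 and 125 CPM in the carfilzomib-resistant line. No library of one group overlapped another, and it rose 1.6-fold and 1.27-fold (log2 0.68 ± 0.0597 and 0.34 ± 0.0595, adjusted p = 4.45e-08 and 9.88e-05). In 5TGM1, Abcc1 read 50.4, 58.7 and 56.3 CPM and 56.5, 51.6 and 54.1 CPM, with overlapping libraries and an adjusted p of 0.644. ABCC1 was the only one of the 3 named exporters that rose in a resistant line, and it did so in the human line alone.

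**Figure D2:**
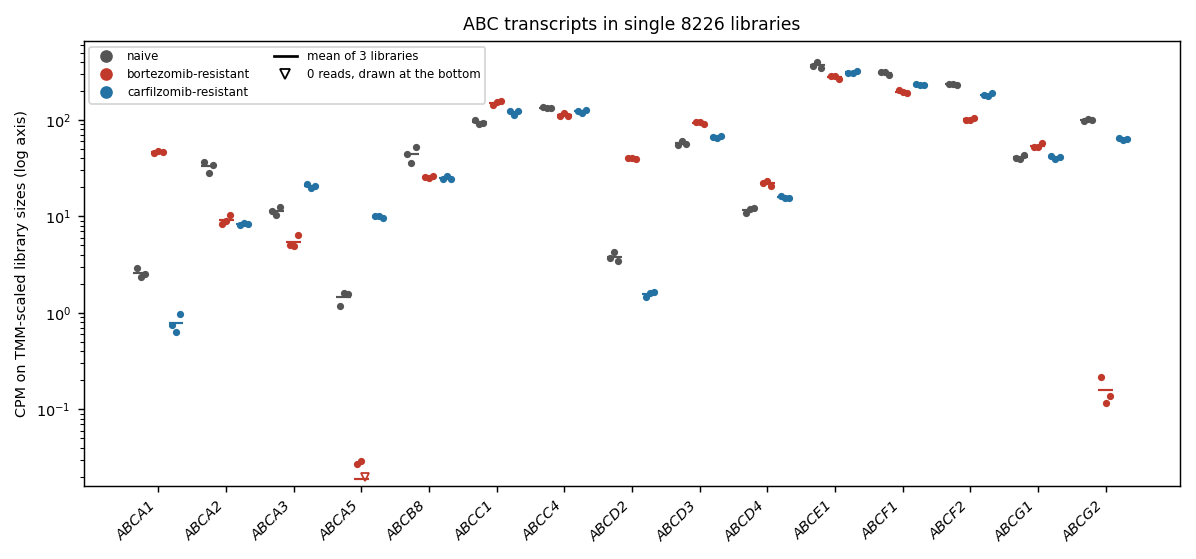
CPM on TMM-scaled library sizes (log axis) of 15 ABC genes in the 9 libraries of 8226, by group; dots are libraries, short lines group means of 3, and the open triangle at the bottom is a library with 0 reads. ABCG2 and ABCA5 drop to the bottom in the bortezomib-resistant line (0.117 to 0.218 and at most 0.0292 CPM), while ABCA1 and ABCD2 stand highest there.

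Further members of subfamily C were tested in 8226. ABCC4 (MRP4, an exporter of cyclic nucleotides) read 134 ± 1.19 CPM in naive, 113 ± 4.75 in bortezomib-resistant and 123 ± 3.56 in carfilzomib-resistant cells (SD, n = 3). It was called lower in both, by 0.25 and 0.13 on the log2 scale. Both calls were lost when libraries were scaled by size alone (adjusted p = 0.283 and 0.261). ABCC10, another drug exporter, rose from 13.6 ± 1.79 to 18.2 ± 1.72 CPM with bortezomib resistance (log2 0.42) and was not called with carfilzomib resistance (15.1 ± 0.573 CPM). ABCC5, which exports nucleotide analogues, read 29.4, 25.9 and 29.2 CPM and was called lower in the bortezomib-resistant line (adjusted p = 0.0236) and not in the other. That call was lost without naive replicate 2 or bortezomib-resistant replicate 1 or 3 (adjusted p = 0.0722, 0.115 and 0.0536), and with libraries scaled by size alone the difference turned to 0.0060 on the log2 scale. ABCC2, the canalicular exporter of liver, was barely transcribed: 38, 92 and 98 reads over the groups, which passed as higher in both resistant lines (log2 1.44 and 1.04).

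In 5TGM1, where 34.0% of all tested genes rose and 33.2% fell, edgeR called none of the 4 tested Abcc genes. An unadjusted p below 0.05 was reached by 0 of them, and DESeq2 also called 0. Abcc5 stood at 20.1 ± 0.801 and 20.1 ± 1.19 CPM, Abcc10 at 9.86 ± 0.732 and 9.46 ± 0.200 CPM, and Abcc3, near the detection limit, at 0.187 ± 0.0917 and 0.187 ± 0.0488 CPM. Abcc4, the mouse counterpart of a gene above 100 CPM in human cells, had 8 reads in naive and 0 in resistant 5TGM1. Whether the annotation or the counting bears on so low a count was not tested. Without the count filter edgeR called 3 further genes, Abcc2 and Abcc4 lower and Abcc8 higher (adjusted p = 0.013, 0.0158 and 0.00963), each from at most 25 reads in a group.

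Apart from ABCA6, which had few reads, the largest rises in bortezomib-resistant 8226 were in ABCA1 and ABCD2, and both genes fell in the carfilzomib-resistant line. ABCA1 exports cholesterol and phospholipid to apolipoprotein A-I, and ABCD2 imports very long-chain and polyunsaturated acyl-CoA into peroxisomes. ABCA1 read 2.94, 2.37 and 2.52 CPM in naive, 46.1, 47.5 and 46.4 CPM in bortezomib-resistant and 0.741, 0.628 and 0.973 CPM in carfilzomib-resistant libraries. ABCD2 read 3.70, 4.31 and 3.42, then 40.8, 40.3 and 39.6, then 1.46, 1.62 and 1.65 CPM in the same order of groups. For both genes the 3 groups were fully apart, with the bortezomib-resistant libraries highest and the carfilzomib-resistant ones lowest. ABCA1 rose 17.8-fold (log2 4.15 ± 0.0986, adjusted p = 5.37e-15) and fell 3.29-fold (log2 -1.72 ± 0.15, adjusted p = 5.58e-08). ABCD2 rose 10.5-fold (log2 3.40 ± 0.0853) and fell 2.42-fold (log2 -1.27 ± 0.113). Between the resistant lines the difference was 58.4-fold for ABCA1 and 25.5-fold for ABCD2.

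Protein-coding neighbours of these 2 genes, again looked up afterwards, moved in both directions. Beside ABCA1 on chromosome 9, NIPSNAP3A read 18.9, 39.5 and 22.8 CPM in naive, bortezomib-resistant and carfilzomib-resistant cells. SLC44A1 read 135 CPM in naive and 187 CPM in bortezomib-resistant cells, and FSD1L read 3.21, 16.4 and 3.86 CPM. NIPSNAP3B went the other way at a low level, with 35, 3 and 12 reads. Beside ABCD2 on chromosome 12, CPNE8 read 17.6, 54.8 and 34.3 CPM, KIF21A 120, 185 and 143 CPM and SLC2A13 8.44, 15.8 and 13.5 CPM. ALG10B on the same chromosome went the other way, at 28.7, 13.8 and 31.7 CPM, and the pair of further genes C12orf40 and LRRK2 had at most 2 reads in any group.

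The sequences before the annotated starts of ABCA1, ABCD2, ABCA5 and ABCG2 are shown because the first pair stood highest in the bortezomib-resistant line and the second pair was nearly without reads there. Each is the 250 bases upstream of the start, 5′ to 3′ on the gene's own strand, from RefSeq on GRCh38.p14. Capitals mark every match, on either strand, to an E-box (letters CACGTG), to a GC box (letters GGGCGG), to the CCAAT box, or to a TATA box (letters TATAAA).
ABCA1: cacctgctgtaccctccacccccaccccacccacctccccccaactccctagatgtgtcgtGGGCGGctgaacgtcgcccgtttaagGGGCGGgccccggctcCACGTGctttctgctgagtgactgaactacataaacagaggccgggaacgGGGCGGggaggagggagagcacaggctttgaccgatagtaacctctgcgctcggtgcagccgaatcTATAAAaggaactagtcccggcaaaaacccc
ABCD2: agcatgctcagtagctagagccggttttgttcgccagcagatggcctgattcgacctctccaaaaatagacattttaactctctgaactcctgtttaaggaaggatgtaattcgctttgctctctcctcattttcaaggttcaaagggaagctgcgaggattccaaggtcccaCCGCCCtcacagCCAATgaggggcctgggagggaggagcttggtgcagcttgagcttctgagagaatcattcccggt
ABCA5: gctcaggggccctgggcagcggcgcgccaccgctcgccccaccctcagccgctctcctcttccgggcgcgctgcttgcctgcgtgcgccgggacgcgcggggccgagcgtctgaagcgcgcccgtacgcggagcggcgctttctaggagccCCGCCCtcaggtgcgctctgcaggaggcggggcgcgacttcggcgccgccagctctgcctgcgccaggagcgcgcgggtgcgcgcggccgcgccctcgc
ABCG2: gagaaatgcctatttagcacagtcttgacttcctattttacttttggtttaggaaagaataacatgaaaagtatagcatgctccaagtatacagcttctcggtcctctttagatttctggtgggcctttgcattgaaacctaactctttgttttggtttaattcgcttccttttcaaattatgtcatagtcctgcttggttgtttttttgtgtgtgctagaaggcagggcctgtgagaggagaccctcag
The ABCA1 stretch is chr9:104928156-104928405, the ABCD2 stretch chr12:39619804-39620053, the ABCA5 stretch chr17:69327134-69327383 and the ABCG2 stretch chr4:88231627-88231876, all on the minus strand. Motifs were searched on both strands, and none of the searched motifs overlap each other here. ABCA1 holds 1 E-box, 3 GC boxes and 1 TATA box. ABCD2 holds 1 GC box and 1 CCAAT box, ABCA5 holds 1 GC box, and none of these letters occur in the ABCG2 stretch. Over 27305 RefSeq promoters of that length, 6.49% hold the E-box, 42.3% the GC box, 33% the CCAAT box and 11.1% the TATA box, and among the 35 matched members 4, 18, 6 and 5 do. The table gives 1 start per gene, which need not be the start used in these cells, and a match is a description of letters only.

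Promoters of tested and untested members differ in CpG content. The 22 matched members that passed the count filter in 8226 have a median of 20.5 CpG dinucleotides in the stretch, the 13 that did not have a median of 2, and all promoters have 11. ABCA5 and ABCC4 share the highest value of the members with 42, ABCA1 has 16, ABCD2 has 7 and ABCG2 has 2. These medians are given as a description, with no test.

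ABCD3 and ABCD4 also rose in the bortezomib-resistant line, and their values follow in the order naive, bortezomib-resistant and carfilzomib-resistant. ABCD3 (PMP70, an abundant peroxisomal membrane protein) read 55.4, 61.1 and 56.1, 95.1, 96.6 and 91.0 and 67.1, 65.1 and 68.4 CPM. ABCD4, which serves lysosomal export of vitamin B12, read 10.8, 12.1 and 12.3, 22.4, 23.4 and 20.6 and 16.5, 15.7 and 15.4 CPM. For ABCD3 and ABCD4 the order of the groups was naive, carfilzomib-resistant, bortezomib-resistant, without overlap, while ABCD2 was lower than naive in the carfilzomib-resistant line. ABCD2, ABCD3 and ABCD4 were each called lower in the carfilzomib-resistant than in the bortezomib-resistant line.

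In 5TGM1 the changes of Abcd2 and Abcd4 were smaller than in bortezomib-resistant 8226. Abcd2 was already at 237, 245 and 237 CPM in naive cells and rose to 287, 287 and 291 CPM (log2 0.26 ± 0.0378, adjusted p = 1.2e-05). Abcd4 rose from 14.1 ± 0.300 to 20.1 ± 0.0360 CPM (log2 0.52). Abcd3 had 9 and 5 reads over the groups, so this gene, well counted in 8226, was nearly without reads in the mouse line. Whether the annotation or the counting bears on this was not tested.

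Among 12 genes that work beside the ABCD importers in peroxisome assembly and fatty acid oxidation, 8 rose and 3 fell in bortezomib-resistant 8226, and 8 rose and 1 fell in the carfilzomib-resistant line (medians 0.46 and 0.32). The shares of all tested genes that rose and fell were 38.2% and 41.6%, and 35.0% and 36.7%. ACSL1, which activates long-chain fatty acids, rose from 64.8 to 283 CPM with bortezomib resistance (log2 2.13) and to 106 CPM with carfilzomib resistance (log2 0.71). PEX19, the carrier of peroxisomal membrane proteins that include ABCD3, rose from 108 to 219.9 and 163 CPM. HSD17B4, an enzyme of peroxisomal β-oxidation, rose from 208 to 331 CPM in the first line and fell to 158 CPM in the second. The oxidation enzyme ACAA1 fell in the bortezomib-resistant line, to 23.7 from 32.3 CPM. In 5TGM1, 5 of 10 tested members of this list rose and 4 fell, with a median of 0.13, beside 34.0% and 33.2% of all tested genes.

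In the sterol and phospholipid branch, 2 of 8 tested ABCA genes rose and 3 fell in bortezomib-resistant 8226, and 4 rose and 4 fell in the carfilzomib-resistant line. All tested genes rose and fell at 38.2% and 41.6% in the former and at 35.0% and 36.7% in the latter. ABCA2, an endolysosomal transporter known for its part in sterol and sphingolipid handling, read 36.7, 28.3 and 34.5 CPM in naive, 8.41, 8.90 and 10.4 CPM in bortezomib-resistant and 8.11, 8.60 and 8.27 CPM in carfilzomib-resistant libraries. Both resistant lines lay below naive 8226 and overlapped each other, with falls of 3.59-fold and 3.98-fold (log2 -1.84 ± 0.102 and -1.99 ± 0.0999). ABCA3, the phospholipid transporter of lysosome-related organelles, read 11.4, 10.4 and 12.6, 5.12, 4.96 and 6.38 and 21.7, 19.9 and 20.8 CPM in the same order. It fell 2.08-fold with bortezomib resistance and rose 1.82-fold with carfilzomib resistance. ABCA7, a phospholipid exporter related to ABCA1, was 35.6 ± 3.97, 33.6 ± 0.881 and 25.5 ± 1.18 CPM and was called lower in the carfilzomib-resistant line (log2 -0.48). In the bortezomib-resistant line it was not called, except when naive replicate 2 was left out (log2 -0.18, adjusted p = 0.0134). ABCG1, which passes cholesterol to HDL, read 41.0 ± 1.69, 53.9 ± 2.97 and 41.2 ± 1.23 CPM and was called only in the bortezomib-resistant line (log2 0.40).

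In 5TGM1 several of the same transporters rose together by about 1.5-fold. Abca1 read 37.5, 42.2 and 37.5 CPM in naive and 59.2, 53.8 and 58.4 CPM in resistant libraries (log2 0.54 ± 0.0541, adjusted p = 1.78e-07). Abca2 read 38.4, 40.9 and 37.8 and 61.4, 57.8 and 57.0 CPM (log2 0.59 ± 0.0468). Abcg1 read 129, 146 and 146 and 202, 224 and 203 CPM (log2 0.58 ± 0.0537). For each, every resistant library exceeded every naive one, and Abca7 rose likewise from 47.3 ± 2.54 to 70.2 ± 1.79 CPM. Abca3 had the largest mouse change among the tested members and went down, from 22.0, 26.9 and 25.4 CPM to 13.0, 13.1 and 12.3 CPM (1.94-fold, log2 -0.96 ± 0.0689, adjusted p = 3.31e-09). Abca8b fell from 6.39 ± 0.0464 to 4.49 ± 0.215 CPM, and Abca5 stood at 46.0 ± 3.61 and 49.1 ± 1.59 CPM and was not called (adjusted p = 0.15), except without naive replicate 2 (adjusted p = 0.0143).

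**Figure D3:**
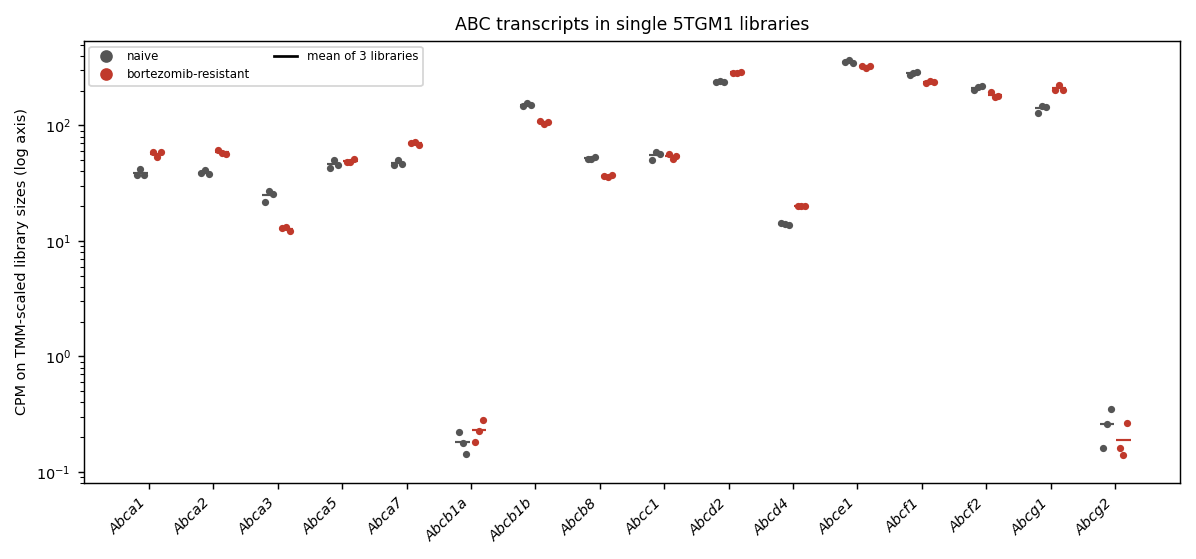
CPM on TMM-scaled library sizes (log axis) of 16 ABC genes in the 6 libraries of 5TGM1, by group; dots are libraries and short lines group means of 3. Groups separate for genes such as Abca3, Abcb1b, Abcg1 and Abcd2, but no called gene moved as far as 2-fold, and Abcb1a and Abcg2 lie below 0.4 CPM in all libraries.

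Of 13 tested regulators and acceptors of sterol efflux, 9 rose and 1 fell in 5TGM1 (median 0.28), 4 rose and 5 fell in bortezomib-resistant 8226 (median -0.04), and 4 rose and 7 fell in carfilzomib-resistant 8226 (median -0.38). Over all tested genes the shares that rose and fell were 34.0% and 33.2%, 38.2% and 41.6%, and 35.0% and 36.7%. In 5TGM1 the largest rises of this list were in Rxra, the partner of the LXR sterol receptors, from 18.1 to 33.1 CPM, Srebf1, a regulator of lipid synthesis, from 75.4 to 130.1 CPM, and Npc1, the lysosomal cholesterol exporter, from 33.4 to 54.9 CPM. In bortezomib-resistant 8226, NPC1 rose from 94.5 to 521 CPM (log2 2.46). Beside the rise of ABCA1, MYLIP, a ligase known as a direct LXR target that degrades the LDL receptor, fell from 106 to 30.2 CPM there (log2 -1.82). The HDL receptor gene SCARB1 fell from 210.3 to 69.8 CPM (log2 -1.59). In carfilzomib-resistant 8226, where ABCA1 fell, NPC1, MYLIP and SCARB1 moved the same way as in the bortezomib-resistant line. They read 194, 53.6 and 147 CPM there (log2 1.04, -0.987 and -0.517 against naive). RXRA fell from 81.8 to 39.3 CPM in the carfilzomib-resistant line (log2 -1.06). RXRA was also called lower in bortezomib-resistant 8226, at 71.3 CPM (log2 -0.198), where ABCA1 rose. A link of any of these genes to ABCA1 was not tested.

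A run of related genes, ABCA8, ABCA9, ABCA6, ABCA10 and ABCA5, lie side by side on chromosome 17, and their RNA was highest in the carfilzomib-resistant line. ABCA5, a lysosomal member of this group, read 1.19, 1.59 and 1.57 CPM in naive, 0.0272, 0.0292 and 0 CPM in bortezomib-resistant and 10.1, 10.00 and 9.65 CPM in carfilzomib-resistant libraries. It rose 6.87-fold with carfilzomib resistance (log2 2.78 ± 0.119, adjusted p = 9.93e-12). In the bortezomib-resistant line 2 reads remained against 174 in naive cells, a ratio of 77.2 with an exact 95% interval of 21.1 to 643 that covers counting error only. Between the resistant lines the ratio was 532 (147 to 4400).

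The others of that cluster were near or at 0 in naive and bortezomib-resistant cells. ABCA6 had 0, 5 and 100 reads over the naive, bortezomib-resistant and carfilzomib-resistant groups. Set against the 3 reads that a count of 0 allows over the group, it was 26.6-fold higher in the carfilzomib-resistant than in the naive line. Its call as higher in the bortezomib-resistant line rests on those 5 reads, and the gene was not tested when only the libraries of the 2 groups entered. ABCA8 had 5, 1 and 65 reads, with 20, 23 and 22 in the carfilzomib-resistant libraries. It was called higher with carfilzomib resistance (log2 3.29 ± 0.466, adjusted p = 1.26e-05, edgeR). ABCA6 and ABCA8 passed the count filter only through the carfilzomib-resistant libraries. Their calls as higher there are thus no further support beyond the reads. ABCA10 had 0, 0 and 24 reads, with 6, 5 and 13 in the carfilzomib-resistant libraries. With the 0 set at 3 reads this is 6.39-fold above naive, though the gene did not pass the filter. ABCA9 had 2 reads in the carfilzomib-resistant group and 0 elsewhere. These genes resemble each other in sequence, so reads may have been set aside or shared among them.

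**Figure D4:**
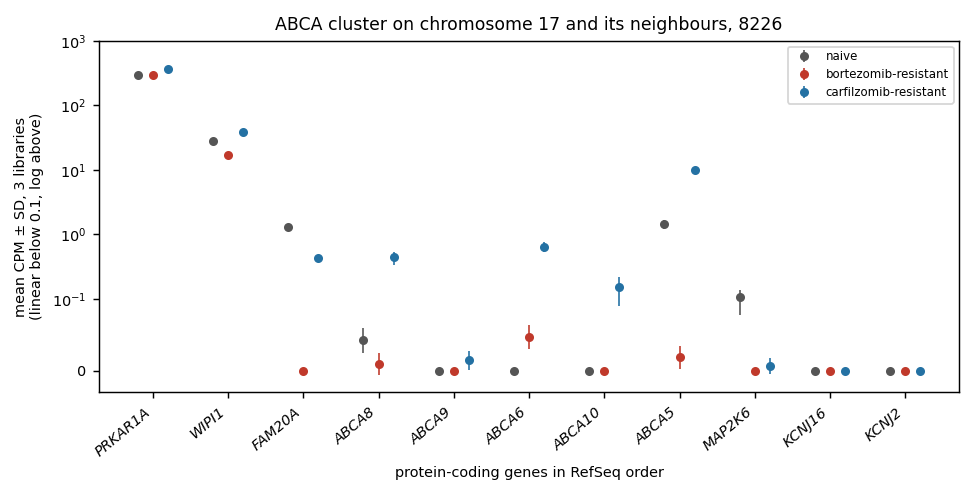
Mean CPM (y axis, linear below 0.1 and log above, ± SD of 3 libraries) of the protein-coding genes around the ABCA cluster on chromosome 17 in 8226, in RefSeq order from left to right. ABCA8, ABCA6, ABCA10 and ABCA5 are highest in the carfilzomib-resistant line (0.439, 0.647, 0.154 and 9.91 CPM), while the flanking genes FAM20A and MAP2K6 are highest in the naive line (1.31 and 0.108 CPM).

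The genes on either side of the cluster moved in different ways. On one side FAM20A read 1.31 CPM in naive cells, had 0 reads in the bortezomib-resistant line and read 0.435 CPM in the carfilzomib-resistant one. Beyond it WIPI1, which acts in autophagy, read 27.6, 17.2 and 39.1 CPM, and PRKAR1A, a regulatory subunit of protein kinase A, 299, 296 and 371 CPM. WIPI1 thus had the same order of groups as ABCA5, lowest in the bortezomib-resistant and highest in the carfilzomib-resistant line. On the other side MAP2K6 had 13, 0 and 1 reads, and the potassium channel genes KCNJ16 and KCNJ2 had 0 in every group. ABCA4, the retinal transporter encoded elsewhere, had 44 and 28 reads in naive and bortezomib-resistant cells and 0 in the carfilzomib-resistant line. With the 0 set at 3 reads, ABCA4 was 18.4-fold below naive there.

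In subfamily B, the half-transporter genes ABCB6, ABCB8 and ABCB9 were called lower in both resistant human lines. Values are in the order naive, bortezomib-resistant and carfilzomib-resistant. ABCB8, a subunit of a mitochondrial potassium channel that also serves iron handling, read 44.4, 36.0 and 52.4, 25.4, 24.9 and 26.0 and 24.5, 26.2 and 24.3 CPM. The naive libraries were spread widely but all lay above every resistant library, with falls of 1.74-fold and 1.77-fold. ABCB9, a lysosomal peptide transporter, read 7.87, 6.26 and 7.37, 4.76, 5.16 and 5.84 and 3.67, 4.42 and 3.82 CPM and fell 1.82-fold with carfilzomib resistance. ABCB6, a porphyrin transporter, fell from 4.33 ± 0.238 to 1.59 ± 0.203 and 3.26 ± 0.382 CPM. ABCB10, which serves haem synthesis, stood at 98.1 ± 1.15, 98.9 ± 3.39 and 114 ± 3.62 CPM and was called higher with carfilzomib resistance (log2 0.22).

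In 5TGM1, Abcb8 fell from 51.8 ± 1.23 to 36.5 ± 0.941 CPM (log2 -0.51), while Abcb6 rose from 49.4 ± 3.84 to 56.3 ± 2.37 CPM. Abcb4, the phosphatidylcholine exporter next to the Abcb1 genes, had 93 and 53 reads and was called lower (log2 -0.74 ± 0.262, adjusted p = 0.02). That call was lost with DESeq2 (adjusted p = 0.0831) and without naive replicate 3 or resistant replicate 1 or 2 (adjusted p = 0.112, 0.072 and 0.0668). Abcb9 and Abcb10 were not called.

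Of 15 genes of iron-sulphur cluster and haem synthesis, 4 rose and 5 fell in bortezomib-resistant 8226 (median -0.03), 9 rose and 5 fell in carfilzomib-resistant 8226 (median 0.17) and 8 rose and 2 fell in 5TGM1 (median 0.14). Beside these counts, all tested genes rose and fell at 38.2% and 41.6%, 35.0% and 36.7%, and 34.0% and 33.2%. In bortezomib-resistant 8226 the haem enzymes UROD, PPOX and FECH rose, from 47.9 to 142, from 15.0 to 28.7 and from 78.6 to 149.7 CPM. These haem genes thus rose in the line in which ABCB6 and ABCB8 fell. In carfilzomib-resistant 8226, ISCU, the scaffold of iron-sulphur cluster assembly, fell from 175 to 97.3 CPM.

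The ribosome-acting members were the most abundant tested ABC genes of naive 8226 per kilobase of transcript. They went down in every comparison with naive cells in which they were called. In naive 8226, ABCE1, ABCF1, ABCF2 and ABCF3 held the first 4 places, at 95.3, 88.3, 66.8 and 32.0 CPM per kb. They held the same places in the carfilzomib-resistant line, while ABCF3 ranked 6 in the bortezomib-resistant one. ABCE1, which splits ribosomes after termination, read 367, 404 and 349.9 CPM in naive, 288, 286 and 269.6 CPM in bortezomib-resistant and 310.4, 307 and 326 CPM in carfilzomib-resistant 8226 (log2 -0.41 ± 0.0582 and -0.25 ± 0.058). ABCF1, which acts with the initiation factor eIF2, read 317, 314 and 291, 203, 197 and 189.8 and 239, 229 and 233 CPM. ABCF2 read 239, 239 and 233, 99.6, 101 and 106 and 182, 176 and 192 CPM. All 3 genes were highest in every naive library and lowest in the bortezomib-resistant ones, and ABCF2 moved most, with falls of 2.32-fold (log2 -1.21 ± 0.0511, adjusted p = 5.13e-12) and 1.29-fold (log2 -0.37 ± 0.05, adjusted p = 7.89e-06). ABCF3, linked to the amino acid response, fell in the bortezomib-resistant line, from 83.9 ± 2.09 to 60.5 ± 2.32 CPM, and was not called at 82.9 ± 2.05 CPM in the carfilzomib-resistant one.

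In 5TGM1 the same direction was seen at a smaller size. Abce1 fell from 356 ± 9.35 to 324 ± 6.81 CPM, Abcf1 from 282 ± 7.38 to 238 ± 5.87 CPM and Abcf2 from 212 ± 9.52 to 184 ± 10.5 CPM (log2 -0.14, -0.24 and -0.20, adjusted p = 0.006, 4.61e-05 and 0.00141). Abcf3 read 59.0 ± 2.92 and 62.2 ± 1.09 CPM and was not called. In both 5TGM1 groups Abcf2 and Abcf3 read below Abcd2, which stood at 239.9 and 288 CPM without scaling by length. Of the tested partners of the ribosome-acting genes in termination and initiation, 5 of 12 rose and 2 fell in bortezomib-resistant 8226, 4 rose and 5 fell in carfilzomib-resistant 8226, and 4 of 10 rose and 4 fell in 5TGM1 (medians 0.09, -0.06 and -0.02). For all tested genes the shares were 38.2% and 41.6%, 35.0% and 36.7%, and 34.0% and 33.2%. GSPT1, the release factor eRF3a, fell from 899.8 to 419 CPM in the bortezomib-resistant human line (log2 -1.1) and its mouse counterpart fell from 395 to 339.9 CPM. ETF1, the partner release factor, rose from 268 to 395 CPM in the same human line.

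Which of these changes differed between the lines was tested directly for bortezomib resistance, over the 12 naive and bortezomib-resistant libraries and genes with the same symbol in both tables. A shared symbol is not proof of orthology. Of 29 ABC symbols that passed the filter, 8 had a higher and 12 a lower change in 8226, beside 31.4% and 33.5% of all 11847 tested. Leaving aside ABCC2 and ABCC4, which had few mouse reads, the differences (8226 minus 5TGM1, log2) were largest for ABCA1 (3.63 ± 0.107, SE) and ABCD2 (3.16 ± 0.0861) on the higher side. On the lower side they were largest for ABCG2 (-8.80 ± 0.514), ABCA5 (-6.15 ± 0.432) and ABCA2 (-2.41 ± 0.121), where bortezomib-resistant 8226 had 17 reads of ABCG2 and 2 of ABCA5, and mouse Abcg2 was low throughout. The lower value of ABCG4 (-5.57) rests on 16 and 0 human reads. ABCA2, ABCA7 and ABCB6 rose in 5TGM1; of these ABCA2 and ABCB6 fell in 8226 and ABCA7 was not called there. ABCA3 fell in both lines and the difference of -0.08 ± 0.137 was not called (adjusted p = 0.642). ABCG1 rose in both, with a difference of -0.16 ± 0.0868 (adjusted p = 0.106) that DESeq2 called (adjusted p = 0.0484). For ABCB8, which fell in both, the difference was -0.27 ± 0.124 (adjusted p = 0.0631). It was called with a replicate block (adjusted p = 0.0339), with DESeq2 (0.0431), with no count filter (0.0347) and without naive 8226 replicate 2 (0.000225).

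**Figure D5:**
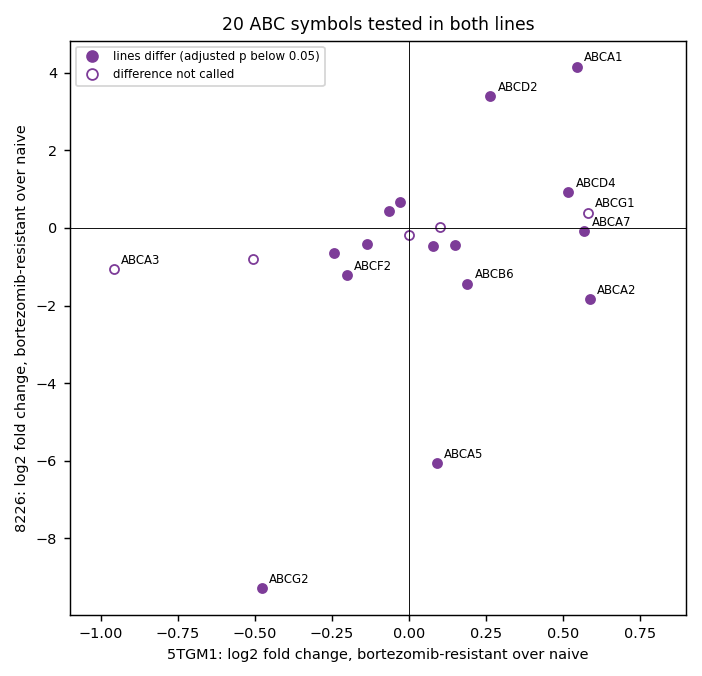
Log2 fold change with bortezomib resistance in 5TGM1 (x axis) against that in 8226 (y axis, a wider scale) for 20 ABC symbols tested in both lines, each point from the line's own fit. Filled points are genes whose change differed between the lines at an adjusted p below 0.05; ABCA3 lies low in both lines and its difference was not called, and ABCA1 and ABCD2 lie high in 8226 above smaller mouse changes.

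Genes of the family that carry other symbols were listed apart. TAP1 and TAP2, the peptide transporter that loads MHC class I molecules with proteasome products, split between the lines. Tap1 fell from 193 to 55.6 CPM in 5TGM1 (log2 -1.79), where Tap2 read 66.2 and 62.0 CPM and was not called. In 8226, TAP1 rose from 60.7 to 98.7 (bortezomib) and 78.2 CPM (carfilzomib), while TAP2 fell to 120.3 and rose to 187 CPM from 166. Of 7 partners in peptide loading, 2 rose and 4 fell in 5TGM1, 2 rose and 5 fell in bortezomib-resistant 8226, and 1 rose and 5 fell in the carfilzomib-resistant line. All tested genes rose and fell at 34.0% and 33.2%, 38.2% and 41.6%, and 35.0% and 36.7% in that order. B2m fell with Tap1 in 5TGM1, from 3017 to 959 CPM (log2 -1.65). ERAP1, which trims the loaded peptides, rose from 149 to 385 CPM in bortezomib-resistant 8226 (log2 1.37). The pseudogene ABCA11P rose from 2.22 to 7.37 and 4.60 CPM in the 8226 lines.

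Glutathione supplies the conjugates that ABCC pumps carry. Of 13 tested glutathione genes, 7 rose and 5 fell in bortezomib-resistant 8226 and 4 rose and 7 fell in the carfilzomib-resistant line, and 5 of 11 rose and 2 fell in 5TGM1 (medians 0.12, -0.23 and 0.23). Among all tested genes the shares were 38.2% and 41.6%, 35.0% and 36.7%, and 34.0% and 33.2%. The microsomal transferases MGST3 and MGST2 and the transferase GSTO1 rose in both resistant 8226 lines: MGST3 from 6.62 to 25.8 and 18.1 CPM, MGST2 from 3.16 to 10.3 and 10.8 CPM, and GSTO1 from 23.0 to 61.1 and 50.5 CPM. Other transferases did not rise in both. MGST1, at 246.5 CPM in naive cells, was not called with bortezomib resistance and fell to 130.2 CPM with carfilzomib resistance (log2 -0.921). GSTK1 fell from 60.7 to 46.6 and 45.4 CPM. GSTM4 read 5.78, 9.99 and 4.96 CPM in naive, bortezomib-resistant and carfilzomib-resistant cells. In 5TGM1, Gsto1 fell from 318 to 227 CPM and Gss, which makes glutathione, rose from 16.4 to 25.1 CPM.

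Other genes linked to multidrug resistance, and regulators of ABCB1, moved both ways: 4 of 12 tested rose and 5 fell in bortezomib-resistant 8226, 6 rose and 4 fell in the carfilzomib-resistant line, and 1 of 9 rose and 4 fell in 5TGM1 (medians -0.05, 0.18 and -0.06). Shares over all tested genes were 38.2% and 41.6%, 35.0% and 36.7%, and 34.0% and 33.2%. MVP, the major vault protein once named lung resistance protein, rose from 66.5 to 124 CPM with bortezomib resistance (log2 0.9) and fell to 18.6 CPM with carfilzomib resistance (log2 -1.84). CAV1, the caveolin gene, fell in both, from 207 to 15.9 and 7.45 CPM. HIF1A and FOXO1 rose in both, HIF1A from 95.9 to 161 and 164 CPM and FOXO1 from 13.8 to 23.1 and 23.7 CPM. In 5TGM1, Nfe2l2, the oxidative stress regulator NRF2, fell from 75.6 to 50.4 CPM, and Prkca from 22.9 to 15.4 CPM, beside the fall of Abcb1b.

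The members that did not pass the filter had few reads everywhere. In 8226, ABCA12, ABCB5, ABCB11 and ABCG8 had 0 reads in all 9 libraries. Apart from ABCB1, ABCA9 and ABCA10, the other untested human members had at most 17 reads in a group: ABCC11 had 11, 15 and 17 reads in the naive, bortezomib-resistant and carfilzomib-resistant groups, ABCG4 had 16, 0 and 2, and ABCC6 had 1, 0 and 7. With its 0 reads set at 3, ABCG4, a brain sterol transporter, was 4.73-fold below naive in the bortezomib-resistant line. ABCA13, ABCB4, ABCC3, ABCC8, ABCC9, ABCC12, ABCC13 and ABCG5 had at most 6 reads in any group.

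In 5TGM1, Abca15 and Abcg8 had 0 reads in all 6 libraries. The most reads among the untested mouse members were on Abcg5, with 37 over the naive and 19 over the resistant group, Abcg3 with 30 and 11, Abca6 with 27 and 9, Abcc2 with 25 and 7, Abcc8 with 6 and 22, and Abca4 with 21 and 9. Abca9 and Abcc9 had 13 reads each in naive and 7 and 6 in resistant cells, and Abca12 had 11 and 10. Abca8a, Abca13, Abca14, Abca16, Abca17, Abcb5, Abcb11, Abcc6 and Abcc12 had at most 8 reads in a group. Abcg4, tested and low, read 1.85 ± 0.265 and 1.80 ± 0.270 CPM.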

How the data were processed

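Gene reads were counted in 15 libraries, 3 for each of 5 groups taken from the sample titles. Per the submitters' processing notes the authors used STAR, with no version stated, and the notes name mm10, hg19, GRCm38 and GRCh37. The deposited values are raw read counts per gene symbol, in the 3 strand columns STAR writes, and column 4 was used because the opposite strand held 1.43% to 2.12% of stranded gene reads. Reads that mapped to several places (15.3% to 16.3% in mouse, 8.95% to 10.9% in human libraries) were set aside by the counting, so genes with close copies are uncertain. The rows for reads outside genes stayed out of library sizes.

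From the counts, differences were tested in R 4.3.3 with edgeR 4.0.16: TMM scaling, filterByExpr, a quasi-likelihood F test and Benjamini-Hochberg adjustment over all tested genes. All 9 human libraries shared a fit. The steps were tested on simulated data. DESeq2 1.42.0 was run as an alternative, as were library size alone, other count filters, unstranded counts, leaving out each library, a replicate block and, in 8226, fits of the 2 groups compared. Standard errors were derived from the F statistic. A library's depth puts 3 counts, the limit for a count of 0, at 0.0415 to 0.0946 CPM, and such limits and intervals cover counting error only. Folds against a count of 0 set at 3 leave out the counting error of the other group, so they are not strict lower bounds. Replicate libraries differed beyond sampling noise (chi-square per degree of freedom 3.98 to 25.8). Nothing in the labels says that they came from separate cultures, so p-values measure the spread between libraries, which may be technical.

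The members and lists were chosen with earlier results of these data known. Values in every library are given for ABCB1, ABCC1 and ABCG2 and their mouse counterparts, and for called members that reach 5 CPM in the higher group and change at least 1.5-fold. For a partner list, up to 3 called genes of at least 5 CPM that moved most are named, and a few others were chosen after their values were seen. Kilobase lengths are exon unions of GENCODE v29 on GRCh38 and are approximate, since the human tables were made on another build. Promoters came from RefSeq (GRCh38.p14), matched by symbol for 35 of 46 human members. A few genes are counted in the totals but not reported here by name.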

Additional observations from a re-analysis of the deposited data

Results flagged for a closer look

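The change with bortezomib resistance differed between 8226 and 5TGM1 for 20 ABC symbols in the test of the difference itself (edgeR, 12 libraries, adjusted p below 0.05), of which 18 are given. Each value is the log2 change in 8226 minus that in 5TGM1. In subfamilies A and D the difference was 3.63 for ABCA1, 3.16 for ABCD2 and 0.42 for ABCD4. It was -2.41 for ABCA2, -6.15 for ABCA5 (174 and 2 human reads) and -0.63 for ABCA7. In subfamily B it was -1.61 for ABCB6 and -0.58 for ABCB9. In subfamily C it was 0.72 for ABCC1 and 0.51 for ABCC10. Among the ribosome-acting genes it was -0.25 for ABCE1, -0.38 for ABCF1, -0.99 for ABCF2 and -0.53 for ABCF3. With library size alone the difference of ABCE1 was -0.071 and lost its call (adjusted p = 0.425), as did that of ABCB9 (adjusted p = 0.0948), which also lost it without resistant 5TGM1 replicate 2 (adjusted p = 0.0797).

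Values for 4 further symbols rest on few reads in one line. They were -8.80 for ABCG2 (44 and 30 mouse reads over the naive and resistant groups) and -5.57 for ABCG4 (16 and 0 human reads). They were 3.17 for ABCC2 (25 and 7 mouse reads) and 4.03 for ABCC4 (8 and 0 mouse reads, where the part of annotation or counting was not tested). Where a group has 0 reads the fitted value depends on the prior count and is no bound.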

How the results depend on the processing

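Over the alternatives run, the counts of ABC genes called in each direction stayed within 1.5 times those reported. Of the values for called genes and the exporters, 1478 kept their direction and side of the threshold, 40 kept their direction but lost the call, and 4 turned. Those 4 were near 0: Abcc1 in 5TGM1 ran from -0.0904 to 0.016 (log2) over the fits that each left out a library, and was 0.016 without naive replicate 2 and 0.0043 without resistant replicate 2. With library size alone, ABCC5 was 0.0060 in bortezomib-resistant against naive 8226 and ABCC4 -0.0046 between the resistant lines. Calls of genes that an alternative did not test are outside this tally. A filter of 1 CPM in 3 libraries so dropped Abcb4 in 5TGM1. In 8226 it dropped ABCA6 and ABCC2 (bortezomib), ABCA4, ABCA6, ABCA8 and ABCC2 (carfilzomib) and ABCA4, ABCA6 and ABCA8 (between resistant lines). It also dropped ABCC2 in the line difference. Fits of only the groups compared dropped ABCA6 (bortezomib) and ABCA4 (between resistant lines).

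Scaling by library size alone moved the median of all genes from -0.026 to 0.157 (bortezomib-resistant against naive 8226), from 0.020 to -0.084 (between resistant 8226 lines) and from -0.031 to 0.148 (line difference). It raised the share of rises among all called genes from 48.3% to 58.9% in the line difference. The small changes of ABCC4, ABCC5, ABCB10, ABCE1 and ABCB9 lost calls under it. The cause was not tested. Leaving out 1 library at a time gave 7 to 9 members higher and 7 to 10 lower in 5TGM1, 10 and 13 to 14 in bortezomib-resistant 8226, 10 to 11 and 12 to 13 in carfilzomib-resistant 8226, 11 to 14 and 10 to 11 between them, and 8 to 9 and 11 to 13 in the line difference.

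Libraries with the same replicate number correlated from -0.304 to 0.391 in their deviations, and those with unlike numbers from -0.33 to 0.279. Deviations from the mean of only 3 libraries constrain each other, so these values cannot decide whether the numbers pair libraries. With a replicate block, 7 members rose and 9 fell in 5TGM1, and ABCC4 lost its call between the resistant lines (log2 0.12, adjusted p = 0.0549, edgeR). The block also called ABCB8 in the line difference (-0.26, adjusted p = 0.0339, edgeR). Depth limits members with few reads, such as ABCB1, whose call without the count filter rests on 6 against 0 reads.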
